A study of Mus musculus with 6 samples.

Results

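A set of cell surface genes of the immunoglobulin superfamily was followed in cultured mouse podocytes, namely Vcam1, Icam1, Mcam, Alcam, Ncam1, L1cam, Nrcam and Cadm1. These 8 genes, of 18193 measured with 1 gene symbol, were read by 27 of the 45037 probe sets other than controls. They were chosen by name, as adhesion molecules around Vcam1 and Mcam, after the large changes of those 2 genes in these same arrays were known. Where a gene had several probe sets, the brightest one on average over the 6 arrays stands for it. That mean, taken without regard to group, also ordered probe sets by brightness and marked dim ones.

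One group of SVI cells, an immortalized line of mouse podocytes that can be made to stop growing and differentiate, was stretched cyclically in 2 directions for 3 days, at 0.5 Hz and up to 5% linear strain. The other group was SVI cells left unstretched. Podocytes are the epithelial cells that cover the capillaries of the kidney's filter. Both groups had been differentiated for 1 to 2 weeks at 38 °C in RPMI with 10% serum, and no genotype other than the line is given. Each group had 3 arrays, and the series speaks of 3 independent batches without saying what they were, so the p-values rest on the spread over arrays, part of which may be technical.

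Immunoglobulin-type adhesion molecules carry a row of immunoglobulin domains outside the cell and bind either a copy of themselves on the next cell or an integrin, a laminin or another receptor. Vcam1 and Icam1 are the ligands by which leukocyte integrins hold on to activated endothelium, and inflamed renal epithelium can make them as well. Mcam, also called CD146, sits on endothelial, pericyte and smooth muscle cells, where it binds laminins and Wnt5a. Ncam1, L1cam, Nrcam and Cadm1 are best known from neurons, in which their cytoplasmic tails hook up to ankyrins, spectrins or scaffold proteins.

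All values are log2 expression values from arrays, and p-values are from limma, adjusted after Benjamini and Hochberg over all genes, or over all probe sets where a probe set is named. A gene was called at an adjusted p under 0.05. A brightness of 5.74, the mean log2 value of the median gene, is used as a mark of dim probe sets, because signal over background is not known here and low values can be background. The arrays had the same mean value, 5.70, and medians of 4.92 to 4.96 in stretched and 4.96 to 4.98 in unstretched cells. The excess of 3' over 5' signal of control probe sets, in log2 units, is a sign of RNA quality. For actin the excess was 1.30 ± 0.05 in stretched and 1.57 ± 0.03 in unstretched cells (SD, n = 3 each). The two-sided exact permutation p was 0.1, and no smaller p can arise with 3 against 3 arrays. For Gapdh the excess was 0.16 ± 0.10 in stretched and 0.25 ± 0.07 in unstretched cells (exact permutation p = 0.4). The part of RNA quality in the results was not tested.

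The promoters of the member that rose and of Icam1, which was not called, are printed to show how different the DNA at their start sites is. RefSeq's promoter table for build GRCm38.p6 held 5 of the 8 members, Vcam1 not among them, with 250 bases before and 50 after each start. Capitals mark matches on either strand to TGACGTCA for the cAMP response element, GGGCGG for the GC box, TATAAA for the TATA motif, GGNNNTTCC for the NF-kB motif, TGANTCA for the motif of AP-1, GGAATG for that of TEAD factors, and the CArG box bound by SRF. The first line is chr9:44134408-44134707 and the second chr9:21015690-21015989, both on the plus strand.
Mcam: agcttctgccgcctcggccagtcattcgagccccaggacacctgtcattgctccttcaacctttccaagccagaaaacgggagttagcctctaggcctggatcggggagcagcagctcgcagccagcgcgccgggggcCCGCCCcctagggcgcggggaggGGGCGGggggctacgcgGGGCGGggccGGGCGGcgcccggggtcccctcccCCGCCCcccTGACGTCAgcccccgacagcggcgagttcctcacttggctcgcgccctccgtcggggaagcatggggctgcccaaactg
Icam1: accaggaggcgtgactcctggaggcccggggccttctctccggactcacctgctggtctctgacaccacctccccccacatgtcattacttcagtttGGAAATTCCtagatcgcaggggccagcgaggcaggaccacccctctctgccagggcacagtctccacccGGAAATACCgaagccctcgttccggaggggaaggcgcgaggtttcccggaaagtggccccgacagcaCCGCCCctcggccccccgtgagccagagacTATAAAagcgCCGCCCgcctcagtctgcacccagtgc
The Mcam window held 1 cAMP response element, at positions 222 to 229 counted from its 5′ end, and 5 GC boxes. The Icam1 window held 2 NF-kB motifs, at positions 98 to 106 and 167 to 175, 2 GC boxes and 1 TATA motif. Of 32841 promoters of that length, 1.79% held the cAMP response element, 35.7% a GC box, 18.5% the NF-kB motif and 13.6% the TATA motif. AP-1 (7.81% of promoters), TEAD (14.7%) and CArG (1.63%) motifs had no match in either window. The windows of Alcam, L1cam and Nrcam held GC boxes as their sole matches. The motifs were chosen after the sequences had been seen, so a match beside these shares carries no test. A match is a description of letters and not a binding site.

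Vcam1, the ligand of the alpha4 integrins, was far lower in stretched cells. Its brightest probe set read 7.00, 7.15 and 6.95 on the stretched arrays, against 8.90, 9.32 and 9.63 on the unstretched arrays. The groups were more than 1 log2 unit apart, and the unstretched arrays were the more scattered, with SDs of 0.11 in stretched and 0.36 in unstretched cells. The log2 change was -2.25 (95% interval -2.59 to -1.91, SE 0.16), a level 4.76-fold lower. Since Vcam1 and Mcam were picked for the size of their changes, these are descriptions and no p-value is given for either.

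The other 2 probe sets of Vcam1 were also lower without overlap between the groups. Probe set 1415989_at read 6.67, 6.83 and 6.50 on the stretched arrays, against 8.31, 8.37 and 8.72 on the unstretched arrays, a log2 change of -1.79 (SE 0.13). Probe set 1451314_a_at, the dimmest of the 3, read 5.73, 5.86 and 5.85 on the stretched arrays, against 6.74, 6.36 and 6.95 on the unstretched arrays, a change of -0.87 (SE 0.14). All 3 thus had the same sign, but sizes that ranged from 1.83-fold to 4.76-fold lower. The within-array difference between the brightest probe set and the next was 0.36 ± 0.07 in stretched and 0.82 ± 0.20 in unstretched cells (SD, n = 3 each, exact permutation p = 0.1), and these differences did not overlap between the groups. This difference was also smaller in stretched cells for Ncam1, L1cam, Cadm1 and Alcam. Stretched minus unstretched, it was -0.45 for Vcam1, -0.71 for Ncam1, -0.42 for L1cam and -0.31 for Cadm1 (exact permutation p = 0.1 each). For Alcam it was -0.07 (exact permutation p = 0.3). The shift was thus not particular to Vcam1, and its cause was not tested.

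Mcam was the mirror image. Its single probe set read 8.94, 8.60 and 8.91 on the stretched arrays, against 6.65, 6.66 and 6.97 on the unstretched arrays. All 3 stretched arrays were far above all 3 unstretched ones, and the 2 groups were about equally scattered (SD 0.19 in stretched and 0.18 in unstretched cells). The log2 change was 2.05 (95% interval 1.79 to 2.32, SE 0.12), a level 4.15-fold higher. The suffix of this probe set marks probes shared by transcripts of 1 gene, so Mcam isoforms were not read apart.

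**Figure D1:**
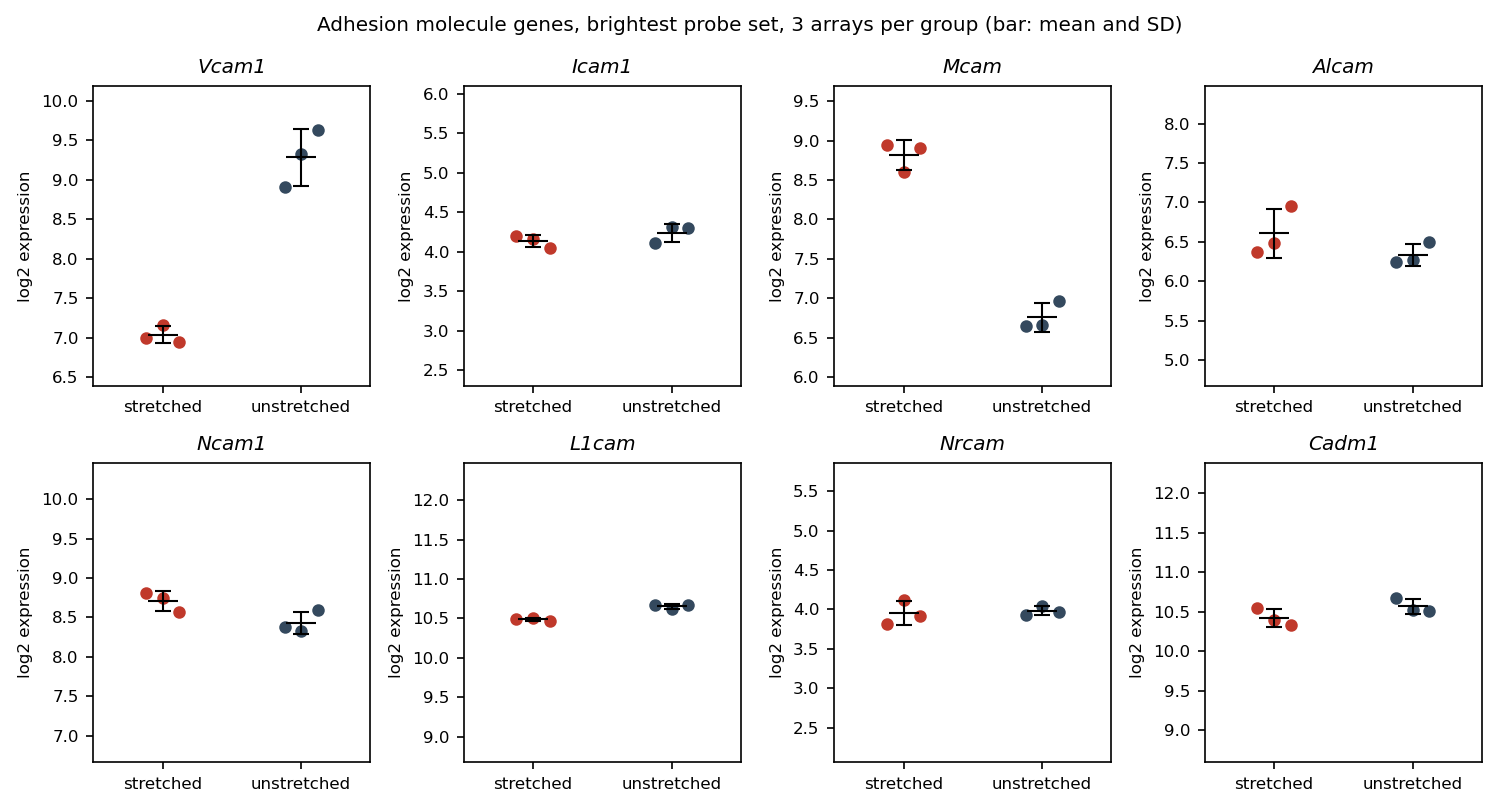
Log2 expression of the 8 adhesion genes on each array, with stretched arrays (red) on the left and unstretched arrays (dark) on the right of each panel. Points are arrays, bars the mean and SD of 3 arrays, and every panel spans the same number of log2 units: Vcam1 averaged 7.03 in stretched and 9.28 in unstretched cells and Mcam 8.81 in stretched and 6.76 in unstretched cells, while Icam1, Alcam, Ncam1, Nrcam and Cadm1 overlapped between the groups.

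Beside these 2, none of the other 6 genes was called by its brightest probe set. In all, 1 of the 8 was called higher, against 7.98% of all genes, and 1 was called lower, against 6.76% of all genes. Higher calls made up 54.2% of all calls, and 42.7% when the arrays were quantile normalized once more. Because Vcam1 and Mcam were known to change when the members were chosen, nothing is read from these counts. The groups did not overlap in 3 of the 8 genes (Vcam1, Mcam and L1cam), against 32.6% of all genes. A log2 change above 2 in size, as in Vcam1 and Mcam, was seen in 13 genes, 0.0715% of those tested.

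Icam1, the ligand of the beta2 integrins and usually induced together with Vcam1 by inflammatory cytokines, was dim in both groups. It read 4.20, 4.16 and 4.05 on the stretched arrays, against 4.11, 4.31 and 4.30 on the unstretched arrays. The values overlap and lie well under the median gene. The log2 change was -0.11 (95% interval -0.31 to 0.09, SE 0.09; limma adjusted p = 0.500). That interval does not reach the change of Vcam1, although RMA compresses changes at such brightness and a single dim probe set may not read Icam1 at all.

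Alcam, which binds itself and the T cell surface receptor Cd6, was read by 5 probe sets, and all 5 had a positive change. The brightest read 6.37, 6.49 and 6.96 on the stretched arrays, against 6.24, 6.27 and 6.50 on the unstretched arrays. Stretched replicate 3 stood above the others of its group and the groups overlapped. The change was 0.27 (SE 0.14, limma adjusted p = 0.251).

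A pair of dimmer Alcam probe sets passed where the brightest did not. Probe set 1437467_at read 6.02, 5.95 and 6.25 on the stretched arrays, against 5.47, 5.58 and 5.75 on the unstretched arrays, and rose by 0.47 (SE 0.11, limma adjusted p = 0.0203). Probe set 1426300_at read 5.79, 5.79 and 5.90 on the stretched arrays, against 5.54, 5.33 and 5.52 on the unstretched arrays, and rose by 0.36 (SE 0.09, limma adjusted p = 0.0318), but its mean is under that of the median gene. The call of Alcam therefore depends on which probe set stands for it.

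Ncam1, a homophilic molecule of neural and muscle cells with many splice forms, showed the widest split between probe sets of 1 gene among the 8 genes after Vcam1. Its brightest probe set, 1426864_a_at, read 8.82, 8.74 and 8.57 on the stretched arrays, against 8.37, 8.33 and 8.59 on the unstretched arrays. Unstretched replicate 3 overlapped the stretched arrays, and the change of 0.28 (SE 0.10, limma adjusted p = 0.0995) did not pass. Without that array it was 0.36 and passed (limma adjusted p = 0.0427).

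The next probe set of Ncam1, 1426865_a_at, read 7.67, 7.54 and 7.72 on the stretched arrays, against 6.52, 6.52 and 6.92 on the unstretched arrays. These groups are clearly apart. It rose by 0.99 (95% interval 0.72 to 1.25, SE 0.12; limma adjusted p = 8.40e-04 over all probe sets), a level 1.99-fold higher. Within arrays, the brightest probe set exceeded this one by 1.07 ± 0.19 in stretched and 1.78 ± 0.09 in unstretched cells (SD, n = 3 each, exact permutation p = 0.1), and these differences did not overlap between the groups. Those of Vcam1, L1cam and Cadm1 did not overlap either. The other 5 Ncam1 probe sets changed by -0.20 to 0.27 without a call, and 4 of them were under the median gene.

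L1cam, the founder of the L1 family of neuronal adhesion molecules, was bright and nearly level. Its brightest probe set read 10.49, 10.51 and 10.47 on the stretched arrays, against 10.67, 10.62 and 10.67 on the unstretched arrays. The groups did not overlap, yet the difference was small, -0.16 (SE 0.08, limma adjusted p = 0.208). The other probe set read 8.06, 8.33 and 8.38 on the stretched arrays, against 8.23, 7.70 and 8.09 on the unstretched arrays, and leaned the other way by 0.25 (SE 0.14, limma adjusted p = 0.311). No direction can thus be given for L1cam.

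Nrcam, the other L1 family member, was read by 4 probe sets that were all under the median gene. The brightest read 3.82, 4.12 and 3.92 on the stretched arrays, against 3.93, 4.05 and 3.97 on the unstretched arrays, with a change of -0.03 (95% interval -0.24 to 0.18, SE 0.10; limma adjusted p = 0.879). Its sign turned in several alternative settings. Over the 4 probe sets the changes ran from -0.25 to 0.06 and 0 were called (limma, adjusted over all probe sets), although 1430583_at had an unadjusted p of 0.0220.

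Cadm1, a nectin-like molecule that holds epithelial cells together, was bright in both groups. Its brightest probe set read 10.55, 10.39 and 10.33 on the stretched arrays, against 10.67, 10.52 and 10.51 on the unstretched arrays. The groups overlapped, and the change was -0.14 (95% interval -0.35 to 0.06, SE 0.09; limma adjusted p = 0.359). Of its 4 probe sets, 3 had a negative change, the lowest -0.18, and 1 a positive one of 0.16, with 0 called (limma, adjusted over all probe sets) and 0 at an unadjusted p under 0.05.

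Over the 27 probe sets of the 8 genes, 4 were called higher and 3 lower, and 20 were not called. Of all probe sets, 6.47% were called higher and 4.51% lower. The 3 lower calls are those of Vcam1, and the 4 higher calls are those of Mcam, Alcam (2) and Ncam1. Since Vcam1 and Mcam were picked for their changes, nothing is read from these counts either. Probe sets under the median gene numbered 11, of which 1 was called.

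**Figure D2:**
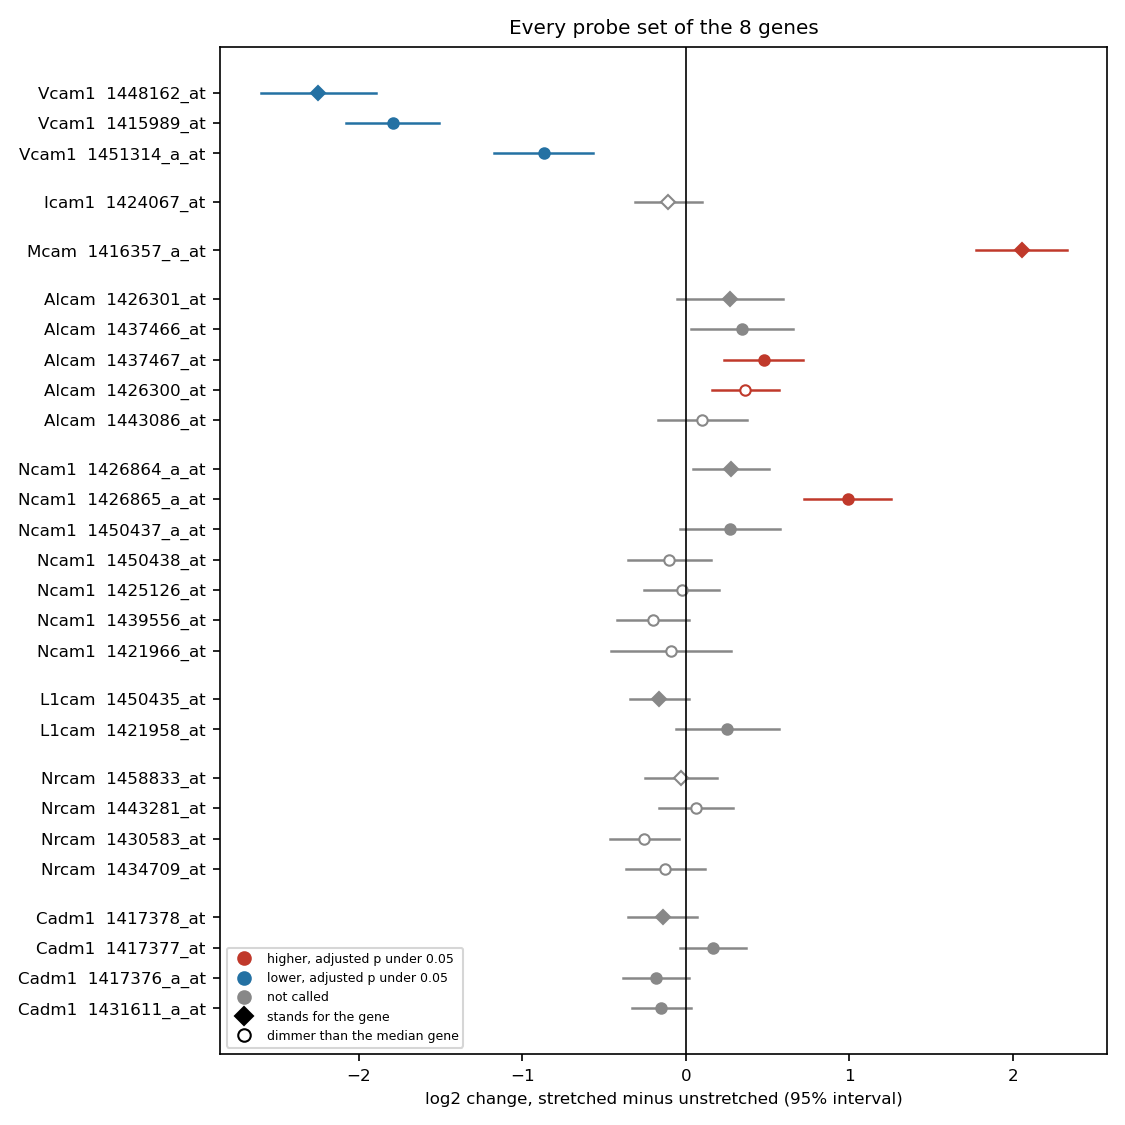
Log2 change (stretched minus unstretched) of each of the 27 probe sets with its 95% interval, grouped by gene and ordered by brightness. Red probe sets were called higher and blue ones lower at an adjusted p under 0.05 over all probe sets, diamonds stand for the gene and open symbols are dimmer than the median gene; the 3 of Vcam1 lie at -2.25, -1.79 and -0.87, Mcam at 2.05 and 1 of the 7 of Ncam1 at 0.99.

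Of 19 counter-receptor and ligand genes of these molecules, 1 rose and 2 fell (15.8%, near the 14.7% of all genes), with a median log2 change of 0.042, against -0.015 over all genes. For Vcam1, the integrin subunit genes Itga4, Itga9, Itgb1 and Itgb7 were not called. Itga4, the alpha chain of the main Vcam1 receptor, read 4.19, 4.40 and 4.20 on the stretched arrays, against 4.17, 4.32 and 4.50 on the unstretched arrays, under the median gene (change -0.06, SE 0.11). Itgb1, which pairs with many alpha subunits, was bright, with 10.81, 10.60 and 10.65 on the stretched arrays, against 10.62, 10.61 and 10.46 on the unstretched arrays (change 0.12, SE 0.09).

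Itgb2, the beta subunit of the leukocyte integrins that bind Icam1, fell nearly as far as Vcam1. Its single probe set read 6.50, 6.60 and 6.61 on the stretched arrays, against 8.67, 8.67 and 8.72 on the unstretched arrays, a change of -2.12 (SE 0.08, limma adjusted p = 2.31e-07). Like the other lists, this one was chosen with earlier results of these data known, so that p-value is a description. The partner alpha subunits Itgal, Itgam and Itgax were under the median gene in these cells and not called, with changes of -0.14 to 0.04.

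Wnt5a, a secreted ligand of Mcam, fell while Mcam rose. Its brightest probe set read 7.37, 7.45 and 7.71 on the stretched arrays, against 8.45, 8.35 and 8.45 on the unstretched arrays. The groups did not overlap, and the change was -0.91 (SE 0.10, limma adjusted p = 2.82e-04). Of the other 3 Wnt5a probe sets, 2 fell as well, with log2 changes of -0.92 and -1.52 (limma adjusted p = 0.00100 and 1.13e-04 over all probe sets). The laminin chain genes bound by Mcam were not called: Lama4 had a change of 0.05 (SE 0.09) and Lama5 of -0.40 (SE 0.16, limma adjusted p = 0.129).

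Nrp1, a semaphorin receptor that forms a complex with L1cam, rose by 0.47 (SE 0.12, limma adjusted p = 0.0236), with values of 8.13, 8.01 and 7.78 on the stretched arrays, against 7.30, 7.55 and 7.66 on the unstretched arrays. The next 2 probe sets of Nrp1 also rose, by 0.90 and 0.68 (limma adjusted p = 0.00926 and 0.00413). The brightest probe set was no longer called when stretched replicate 1 (adjusted p = 0.101) or 2 (0.0759) was left out, without unstretched replicate 1 (0.0767) or 2 (0.0519), and with quantile normalization again (0.0505). The Alcam ligand Cd6 was under the median gene (change -0.06, SE 0.12). Gdnf, Gfra1 and Fgfr1, partners of Ncam1, were not called.

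**Figure D3:**
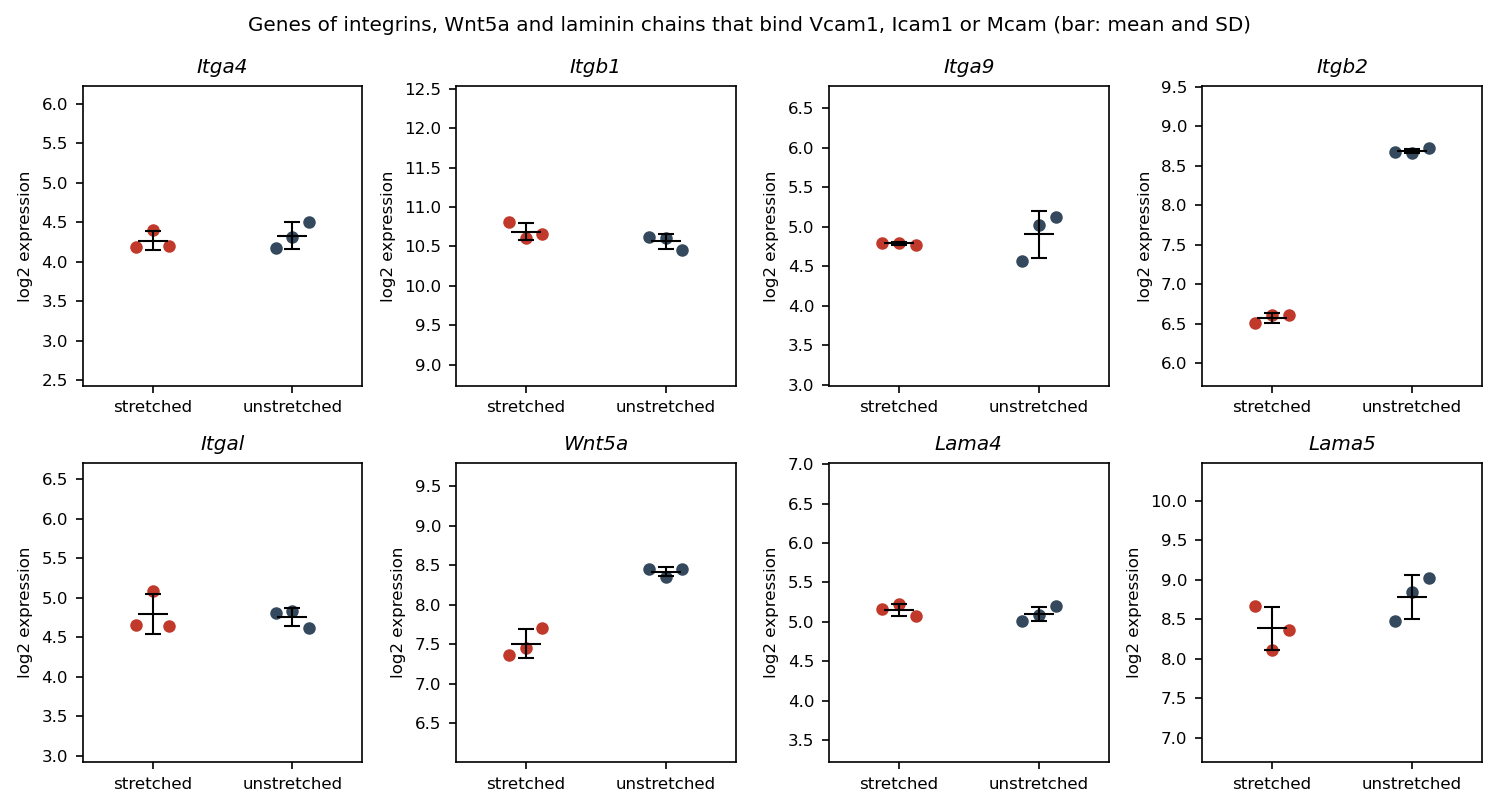
Log2 expression of 8 genes whose products bind Vcam1, Icam1 or Mcam, with stretched arrays (red) on the left and unstretched arrays (dark) on the right; points are arrays and bars the mean and SD of 3 arrays. Itgb2 (means 6.57 in stretched and 8.69 in unstretched cells) and Wnt5a (7.51 in stretched and 8.42 in unstretched cells) are apart, and the other 6 overlap between the groups.

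Of 44 other adhesion molecules of the immunoglobulin superfamily, 3 rose and 1 fell, or 9.09%, against 14.7% of all genes, a difference that was not tested, and the median change was -0.016, against -0.015 over all genes; 32 of the 44 were under the median gene. By the probe set with the largest interquartile range, a choice that favours probe sets differing between the groups, 6 rose and 2 fell. Nectin2, which joins neighbouring cells at adherens junctions, read 9.39, 9.29 and 9.36 on the stretched arrays, against 8.66, 8.62 and 8.66 on the unstretched arrays, and rose by 0.70 (SE 0.08, limma adjusted p = 3.11e-04). Its other probe set rose by 1.08. The junctional adhesion molecule Jam3 rose by 0.39 (SE 0.09) and neuroplastin (Nptn), a companion of transporters and channels, by 0.36 (SE 0.08). The second probe set of each was dim and not called (changes -0.04 and -0.05), and averaging the 2 ended both calls (adjusted p = 0.189 for Jam3 and 0.236 for Nptn). The Nptn call also ended without stretched replicate 3 (adjusted p = 0.0562).

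Igsf11, a homophilic molecule, was the gene of this family that fell. It read 4.85, 4.85 and 4.66 on the stretched arrays, against 5.56, 5.49 and 5.54 on the unstretched arrays, with a change of -0.74 (SE 0.09, limma adjusted p = 3.90e-04), from values under the median gene. The endothelial members Pecam1, Icam2 and Esam were dim too and not called, with changes of -0.06 to 0.10. Bright members that were not called include the coxsackievirus receptor Cxadr (-0.01, SE 0.09), basigin (Bsg, -0.20, SE 0.08) and Cd47 (-0.13, SE 0.08).

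Among proteins that link these molecules to the cell interior or cut them off the surface, 3 of 21 rose and 2 fell (23.8%, against 14.7% of all genes), with a median change of 0.083, against -0.015 over all genes. These shares are not like for like, since only 3 of the 21 were under the median gene. With dim genes removed, 2718 of 9097 genes were called. The difference was not tested. The counts depended on the probe sets: with averaged probe sets 3 rose and 0 fell, and by the probe set with the largest interquartile range 6 rose and 1 fell. The latter choice favours probe sets that differ between the groups. Actn1, an actin crosslinker that binds the tails of several adhesion molecules, rose by 0.62 (SE 0.08, limma adjusted p = 7.08e-04). The kinase Fyn, which signals behind Ncam1, read 9.39, 9.45 and 9.42 on the stretched arrays, against 9.01, 8.93 and 8.87 on the unstretched arrays and rose by 0.48 (SE 0.08). The related kinase Src rose by 0.36 (SE 0.09), a call that ended in 5 of 14 alternatives (adjusted p = 0.0567 to 0.0907): without stretched replicate 1 or 3, without unstretched replicate 1 or 2, and with probe sets averaged.

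Ankyrins anchor L1cam and Nrcam to the spectrin skeleton, and both that were called had conflicting or weak support. Ank3 fell by 0.41 by its brightest probe set (SE 0.09, limma adjusted p = 0.0104), whereas another, 1452872_at, rose by 0.62 (limma adjusted p = 0.0199 over all probe sets). Ank2 fell by 0.44 (SE 0.11), and another of its probe sets fell by 0.47. That call was lost when stretched replicate 2 (adjusted p = 0.0781) or 3 (0.0764) was left out, without unstretched replicate 2 (0.0681) and with averaged probe sets (0.0766). The linkers Ezr, Rdx and Msn, which tie Icam1 and Vcam1 to actin, had changes of -0.22, 0.23 and 0.15 and were not called. The sheddases Adam10 (0.25, SE 0.09, limma adjusted p = 0.109) and Adam17 (-0.07, SE 0.10), which release Vcam1 and L1cam from the membrane, were not called either.

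Vcam1 and Icam1 are textbook targets of NF-kB and of tumour necrosis factor and interferon signalling. Of 27 genes of those pathways, 1 rose and 4 fell (18.5%, against 14.7% of all genes), with a median change of -0.083, against -0.015 over all genes. These shares are not like for like either, since only 8 of the 27 were under the median gene. With dim genes removed, 2718 of 9097 genes were called. Relb, an NF-kB subunit, read 6.50, 6.31 and 6.45 on the stretched arrays, against 7.34, 7.17 and 7.15 on the unstretched arrays, and fell by 0.80 on the log2 scale (SE 0.09, limma adjusted p = 3.39e-04). The receptor Tnfrsf1b read 6.64, 6.72 and 6.95 on the stretched arrays, against 7.51, 7.61 and 7.75 on the unstretched arrays, and fell by 0.85 (SE 0.11, limma adjusted p = 4.99e-04). The subunit Rela (0.24, SE 0.09, limma adjusted p = 0.115), the inhibitor Nfkbia (-0.21, SE 0.09) and the receptor Tnfrsf1a (0.07, SE 0.08) were not called.

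The remaining 3 calls of that list were weaker. Irf1, an interferon-induced factor, fell by 0.32 (SE 0.08), Ifngr2 fell by 0.47 (SE 0.14) and Il1r1 rose by 0.32 (SE 0.09). The Irf1 call ended without stretched replicate 1 or 3 or any 1 unstretched array (adjusted p = 0.0508 to 0.113). The Ifngr2 call ended without stretched replicate 1 or 2, without unstretched replicate 1 or 3 and with arrays centred on their medians (0.0631 to 0.165). The Il1r1 call ended in 7 of 14 alternatives: without stretched replicate 1 or 3, without unstretched replicate 1 or 3, with quantile normalization again, with cyclic loess and with averaged probe sets (0.0782 to 0.235). Tnf, Il1b, Il6 and the selectins Sele and Selp were under the median gene in these cells.

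**Figure D4:**
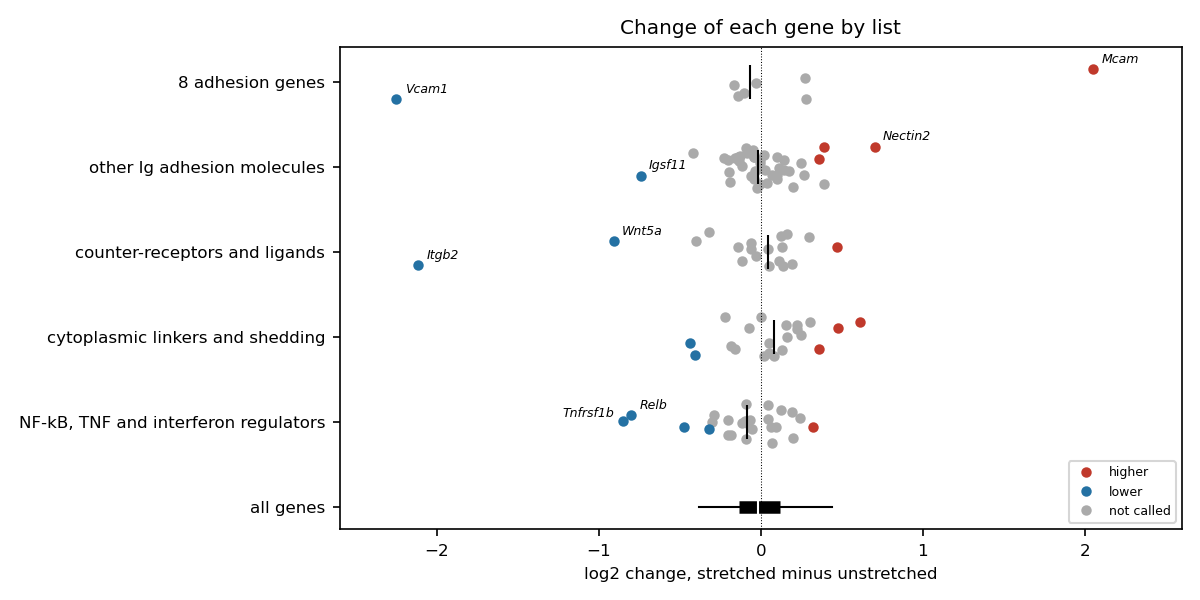
Log2 change (stretched minus unstretched) of each gene in the 8 adhesion genes and the 4 lists around them, with red for genes called higher, blue for genes called lower and grey for the rest; black ticks are medians. The bottom row shows all 18193 genes by their median, interquartile range (thick bar) and 5th to 95th percentile (line), and Vcam1, Itgb2 and Mcam lie farthest from 0.

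By the likeness of their pattern over the 6 arrays, measured as the root mean square difference of log2 values after each gene was centred on its own mean, 5 genes were closest to Vcam1. These were angiotensinogen (Agt, 0.18 log2 units), the metallothionein Mt1 (0.20), Itgb2 (0.22), the growth factor Igf1 (0.27) and Ppfibp2 (0.29). All 5 were lower in stretched cells, with log2 changes of -2.21 to -1.78. Closest to Mcam were the activin antagonist Fst (0.15), the matrix protein Fbln2 (0.16), S100a4 (0.16), the stress fibre adaptor Sorbs2 (0.16) and Filip1l (0.19), which were higher by 1.76 to 2.23. With 2 groups of arrays, such likeness mostly restates a change of like size, and it carries no test.

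Markers of the cell type and of others were set beside these values. Of 11 podocyte markers measured, 0 rose and 2 fell (Synpo by 0.45 and Clic5 by 0.81 on the log2 scale), and 5 were under the median gene, among them Clic5 and the nephrin gene Nphs1, a defining marker of the slit diaphragm. The share called was 18.2%, against 14.7% of all genes. With averaged probe sets the change of Synpo was -0.22 and not called (adjusted p = 0.0837) and that of Clic5 was -0.46. The summed level of the list overlapped, at 11.45 to 11.52 in stretched and 11.35 to 11.52 in unstretched cells on the log2 scale. For endothelium, where Mcam and Vcam1 are well known, 0 of 10 markers were called in limma (0 also at an unadjusted p under 0.05), 9 were under the median gene, Pecam1, Cdh5 and Vwf among them, and the sums were 7.77 to 7.92 in stretched and 7.76 to 7.93 in unstretched cells.

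Leukocyte markers moved in both directions: of 10, Cd14 rose by 0.81, while Cd68, Csf1r and Fcer1g had changes of -0.89, -0.50 and -0.49 and were called lower. The share called was 40%, against 14.7% of all genes, a difference that was not tested. The Fcer1g call was lost without stretched replicate 1 (adjusted p = 0.0663) or unstretched replicate 2 (0.0564). The defining markers Ptprc and Adgre1 were under the median gene in both groups, as were 8 of the 10. The summed level, which Cd14 dominates, was 10.48 to 10.66 in stretched and 10.24 to 10.36 in unstretched cells (exact permutation p = 0.1). Beside the falls of Vcam1 and Itgb2, the list thus held 3 falls, the rise of Cd14 and 6 markers not called. The part of leukocytes in the changes of Vcam1 and Itgb2 was not tested. Fewer cells of a type and less RNA per cell cannot be told apart in bulk RNA.

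For mesangial and smooth muscle cells, in which Mcam is well known, 1 of 8 markers rose (12.5%, near the 14.7% of all genes), the median change was 0.0027 and 5 were under the median gene. The 1 call, Pdgfrb by 0.41, was lost once its probe sets were averaged (adjusted p = 0.280), and its other probe set had a change of -0.15 and was not called. The summed level was 13.60 to 13.66 in stretched and 13.47 to 13.50 in unstretched cells (exact permutation p = 0.1), mostly from Acta2 (change 0.15, SE 0.08, limma adjusted p = 0.260). Of 5 parietal epithelial markers, Cldn1 and Pax8 rose (40%, against 14.7% of all genes), each by 0.62, and neither was called once probe sets were averaged (adjusted p = 0.129 and 0.0570). Of 8 tubule markers, Cubn (12.5% of the list) rose by 0.49, a call lost without stretched replicate 1 (adjusted p = 0.0776) or 2 (0.0716) and without unstretched replicate 2 (0.0562). Of 6 fibroblast markers, Dcn (16.7% of the list) was called lower, with means of 6.97 in stretched and 8.47 in unstretched cells, and its change was -0.68 with averaged probe sets. The summed level was 7.84 to 7.95 in stretched and 7.40 to 7.54 in unstretched cells for the parietal list. It was 10.32 to 10.49 in stretched and 10.25 to 10.37 in unstretched cells for the tubule list, and 7.81 to 7.99 in stretched and 8.77 to 8.99 in unstretched cells for the fibroblast list. The fall of the fibroblast sum came from Dcn. The other 5 fibroblast markers were under the median gene and not called, with changes of -0.07 to 0.09. The part of such cells in the change of Mcam or Vcam1 was not tested.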

How the data were processed

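Total RNA of 6 samples was measured on Affymetrix mouse expression arrays. The authors deposited 1 log2 value for each probe set on each array, made with RMA per the submitters' processing notes, with a version and settings not given in the sources used here. RMA by default corrects background, quantile normalizes arrays and summarises probes, so a global shift of RNA cannot be seen. Control probe sets (64 of 45101) were set aside. GEO's platform annotation gave 34945 of the rest 1 gene symbol and 932 several, and the others stay unnamed; 0 symbols changed through RefSeq. Groups and replicate numbers came from the sample titles. The change, stretched minus unstretched, came from lmFit and eBayes of limma 3.58.1 in R 4.3.3, without covariates, and the steps were tested on simulated data.

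The members and gene lists were chosen with earlier results of these data known. Named genes are all members, the called genes of each list and the 5 profiles closest to Vcam1 and to Mcam. The promoter motifs were chosen after the sequences had been seen. Alternatives were the replicate number as a block, each array left out, another prior, 2 other choices of probe set, 3 other scalings and the removal of dim genes.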

Additional observations from a re-analysis of the deposited data

How the results depend on the processing

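Over the 14 alternatives the log2 changes ranged from -2.44 to -1.64 for Vcam1 and from 1.99 to 2.16 for Mcam, given as a description since both were picked for their changes. Genes called numbered 2681, and 1661 to 2639 with 1 array left out; without stretched replicate 1 there were 872 higher and 789 lower calls, without stretched replicate 2 780 lower and without stretched replicate 3 767 lower of 1750. Members called higher numbered 1 to 2 with 1 array left out (2 without unstretched replicate 3, through Ncam1), and 3 by the probe set with the largest interquartile range (Alcam, Ncam1 and Mcam). Members called lower numbered 2 with quantile normalization again (L1cam, adjusted p = 0.0498), which also moved the share of higher calls to 42.7% from 54.2% of all calls. The change of L1cam turned to 0.045 with averaged probe sets and 0.25 by the largest interquartile range, and that of Ank3 to 0.62 by the latter. The change of Nrcam ran from -0.11 to 0.036 with 1 array left out and was 0.0077 once quantile normalized again and 0.015 with cyclic loess. The cause was not tested. Icam1 and Nrcam gave no value without dim genes. With the replicate number as a block, 3102 genes were called and the member counts were 1 and 1. Same-numbered arrays correlated in their deviations by 0.02, 0.15 and 0.28, and differently numbered arrays by -0.24 to 0.11. The sample titles do not say whether the numbers pair the arrays, so the block stayed an alternative. Of the 37 named genes beside the members, 22 had the same call throughout and 15 lost it at least once. With 3 arrays a group and unknown background, changes of dim genes are the least certain.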
